A study of Mus musculus with 6 samples.

Results

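Pyruvate enters the mitochondrion and is turned into acetyl-CoA through a short, heavily regulated route, and 10 genes of that route are described here in mouse CD8+ T cells, the cytotoxic lymphocytes, exposed to TVA (trans-vaccenic acid, a fatty acid of ruminant milk and meat). They were chosen by name for their function: the pyruvate dehydrogenase kinases Pdk1, Pdk2, Pdk3 and Pdk4, the phosphatase Pdp1, the complex subunits Pdha1, Pdhb and Dlat, and the carriers Mpc1 and Mpc2. They are 10 of the 24589 genes listed. Of these, 10866 genes had at least 1 TPM (a transcript level scaled to transcript length and to the same total in every library) in at least 3 libraries and were tested, among them 9 of the 10, all but Pdk4.

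The cells were primary WT CD8+ T cells from spleen and lymph nodes, enriched with magnetic beads, activated through the T cell receptor and a costimulatory receptor (anti-CD3/28), and treated for 24 h. Of the 6 bulk RNA-seq libraries, 3 came from cells given 20 µM TVA and 3 from cells given DMSO, the solvent control. The comparison addressed which transcripts respond to TVA. Activation, medium and time were shared by both groups. The sources do not say whether the libraries of a group came from separate animals or cultures, so a p-value measures only the spread between these libraries, which may be technical. In bulk RNA, fewer cells of a type and less RNA per cell cannot be told apart.

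The pyruvate dehydrogenase complex of the mitochondrial matrix converts pyruvate to acetyl-CoA and so joins glycolysis to the citric acid cycle. Its kinases phosphorylate the alpha subunit of the first enzyme and switch the complex off, and its phosphatases switch it back on. Activated T cells are known for strong glycolysis with lactate release, and the fate of pyruvate in them depends on this switch, on the carrier of the inner mitochondrial membrane and on lactate dehydrogenase. Pdk1 is a known target of the hypoxia-inducible factor HIF-1, and Pdk4 of the fatty acid receptors PPAR and of FOXO factors, with fasting and fatty acids raising it in muscle and liver.

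DMSO replicate 2 stood apart from its group. Across genes it correlated at 0.996 with each TVA library, and at 0.993 and 0.995 with DMSO replicates 1 and 3 (log2(TPM + 1), genes being no independent replicates). On the first principal component it lay at 1.23, between the other DMSO libraries (-18.2 and -12.8) and the TVA libraries (8.80 to 10.8). Results that rest on it are given with and without it. The CD8 identity matched its markers, with Cd8a at 274 to 318 TPM and Cd8b1 at 306 to 329 TPM in all 6 libraries. Of the B cell markers, Ms4a1 and Pax5 were under 1 TPM throughout and Cd79a was at most 1.07 TPM, whereas Cd79b was at 9.15 to 13.3 TPM. Depth is unknown, since TPM values keep no trace of it.

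Pdk4 was close to 0 TPM with DMSO and listed above 0.6 TPM in each TVA library. Of the genes at higher levels, Mpc2 had a fitted difference of -0.43, which rested on DMSO replicates 1 and 3, and the other 8 differed by at most 0.14 in either direction. None of the 9 genes tested passed an adjusted p of 0.05 in limma (Benjamini-Hochberg over all genes tested), against 8.51% of all genes tested. At an unadjusted p under 0.05 there were 4 of 9, namely Pdp1, Pdha1, Pdhb and Mpc2, against 31.8% of all genes tested. Fitted differences, on the log2(TPM + 1) scale and as TVA minus DMSO, were positive for 5 genes and negative for 4. Their median was 0.026 and their median size 0.090, against 0.039 and 0.095 over all genes tested. In 3 of 9 genes (Pdp1, Pdha1 and Pdhb, 33.3%) every TVA library was above every DMSO library, which held for 27.3% of all genes tested. In none was every TVA library below every DMSO library, against 11.2%. In either direction the groups did not overlap for 38.6% of all genes tested, and here they overlapped in 6 of 9.

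**Figure D1:**
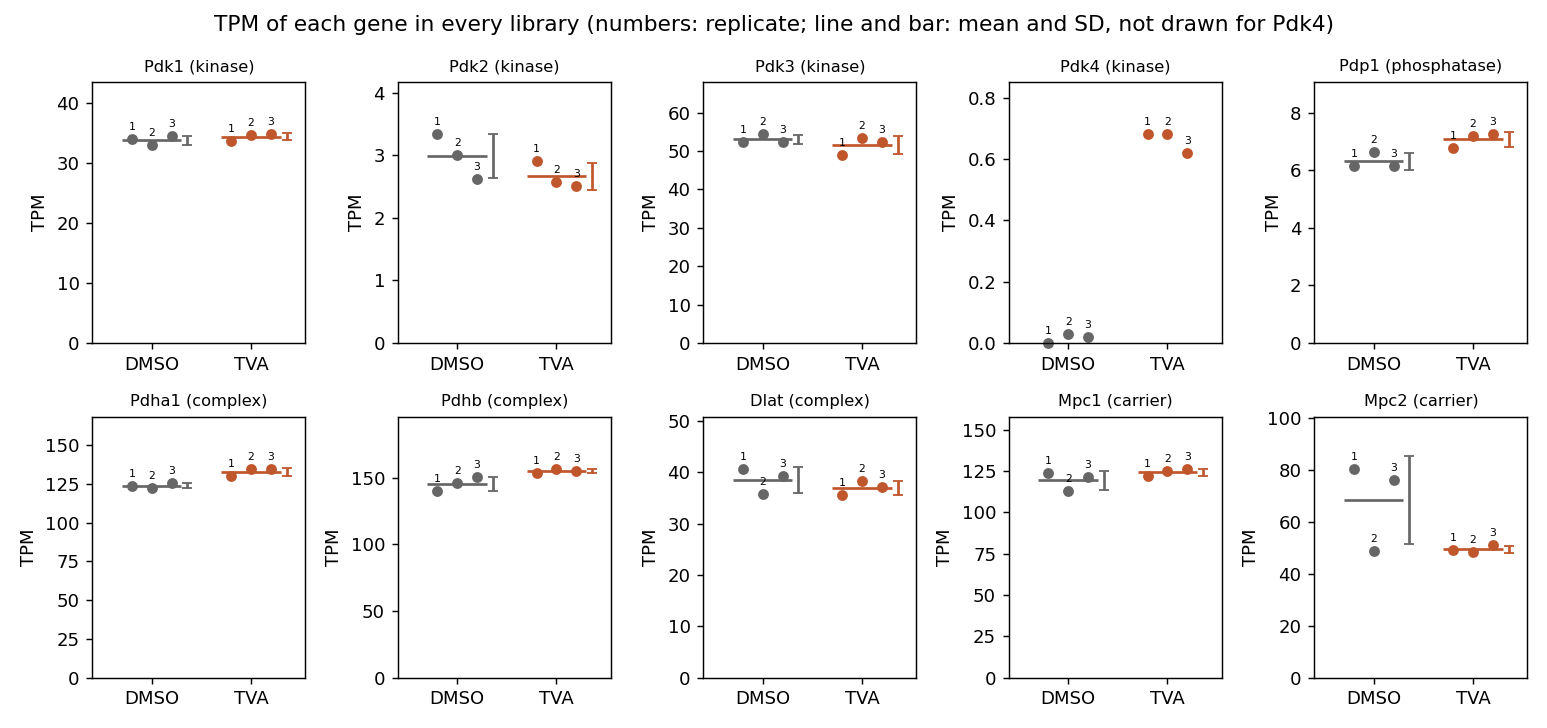
TPM of the 10 genes in each library, on an axis from 0 in every panel; points are libraries labelled by replicate, lines are group means and bars 1 SD (n = 3), which are left out for Pdk4 because 1 library is listed at 0. Pdk4 lies at 0 to 0.03 TPM with DMSO and 0.62 to 0.68 with TVA, the Mpc2 level of DMSO replicate 2 lies among the TVA libraries, and the Pdha1, Pdhb and Pdp1 levels with TVA lie above all DMSO libraries.

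The genes spanned a wide range of levels. Pdhb had the highest mean over the 6 libraries, 150 TPM, above 91.2% of the genes tested, and Pdha1 followed at 128 TPM and Mpc1 at 122 TPM. The ranges of Pdha1 and Mpc1 overlapped, so their order was not beyond the spread. Mpc2 (59.0 TPM) and Pdk3 (52.3 TPM) also overlapped. Dlat (37.8 TPM), Pdk1 (34.1 TPM), Pdp1 (6.70 TPM), Pdk2 (2.82 TPM) and Pdk4 (at most 0.68 TPM in any library) followed, each with a range below that of the gene before it. Pdha1 and Pdhb thus stood well above every kinase in every library, Dlat lay between Pdk3 and Pdk1, and Pdk3 was the most abundant kinase throughout.

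Pdk3, an X-linked kinase (GRCm38 chromosome X, 93764607 to 93832201, minus strand), had levels of 52.5, 54.4 and 52.4 TPM in DMSO replicates 1 to 3 and 49.1, 53.4 and 52.4 TPM in the TVA replicates. The groups overlapped, with TVA replicate 1 the lowest library. The means were 53.1 ± 1.12 (SD, n = 3) and 51.6 ± 2.24, and the log2 difference was -0.040 (SE 0.044, limma adjusted p = 0.56). With a correction for GC content the difference of Pdk3, which had the lowest GC content of the 10 genes (40.6%), was -0.13 with an adjusted p of 0.054 in limma. Across all genes tested the log2 difference had a Spearman correlation of -0.40 with GC content, whose part in these values was not otherwise tested.

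Pdk1 (chromosome 2, 71873224 to 71903858, plus strand), the kinase known as a HIF-1 target, stood at 33.9, 32.9 and 34.5 TPM in the DMSO libraries, against 33.7, 34.7 and 34.7 TPM in those given TVA. The groups overlapped and no library departed from the rest. The log2 difference was 0.026 (SE 0.039, limma adjusted p = 0.67), and its 95% interval reached from -0.065 to 0.12. As a ratio of TPM + 1 that interval spanned 0.956 to 1.08, so larger changes in either direction lay outside it. The sign was not stable, since median-of-ratios scaling, quantile normalization and the GC correction each gave a value below 0 (-0.011 to -0.0037 and -0.028).

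Pdk2 (chromosome 11, 95026258 to 95041354, minus strand), the kinase most widely expressed across tissues, was low here, at 3.33, 3.00 and 2.62 TPM in the DMSO libraries, against 2.90, 2.57 and 2.51 TPM in those given TVA. The groups overlapped, and replicates of 1 group differed by more than the group means did. The log2 difference was -0.12 (SE 0.086, limma adjusted p = 0.36). An annotated gene on the opposite strand, Gm11513, overlaps Pdk2 and was not analysed here. Whether the counting used strand is not stated, so reads of the pair cannot be told apart.

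Pdk4 (chromosome 6, 5483351 to 5496309, minus strand), the kinase known to rise when cells burn fatty acids, was listed at 0, 0.03 and 0.02 TPM in DMSO replicates 1 to 3 and at 0.68, 0.68 and 0.62 TPM in the TVA replicates. All TVA libraries lay above all DMSO libraries, by many times the spread within either group, and DMSO replicate 2 lay with its own group. No fold is given, because 1 DMSO library is listed at 0. Pdk4 stayed under the minimum of 1 TPM and so had no test among the 10866 genes. On this gene alone a two-sided exact permutation test of 3 against 3 libraries cannot go below p = 0.10, the value this separation gives.

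In limma over all 16749 genes listed above 0 TPM in any library, the log2(TPM + 1) difference of Pdk4 was 0.71 (SE 0.027, 95% interval 0.64 to 0.77, adjusted p = 0.0007). In that fit 2.95% of genes were called, and 1.61% were called higher with TVA. Without any single library the difference stayed between 0.69 and 0.73, with limma adjusted p-values from 0.0057 to 0.021. With the replicate number as a block the adjusted p was 0.038. The size depends on the constant added before the logarithm, and was 2.71 with 0.1 in place of 1. By limits set after its values were seen (at most 0.05 TPM in every DMSO library and at least 0.5 TPM in every TVA library), Pdk4 was the 1 gene of the table with this pattern, and 0 genes had the reverse. Pdk4 met these limits by their choice, and other limits, which could admit other genes, were not tried.

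The level of Pdk4 remained small beside that of the other kinases. It made up 0, 0.033 and 0.022% of the summed kinase TPM in the DMSO libraries and 0.787, 0.744 and 0.687% in the TVA libraries. The sum itself was 89.7, 90.3 and 89.5 TPM in the DMSO libraries, against 86.4, 91.4 and 90.2 TPM in those given TVA, so the groups overlapped. Pdk3 held 59.1% ± 0.980 (SD, n = 3) of it with DMSO and 57.8% ± 0.831 with TVA, Pdk1 37.6% ± 1.06 and 38.5% ± 0.505, and Pdk2 3.32% ± 0.393 and 2.98% ± 0.324. These shares were not tested. The kinase mixture thus consisted almost wholly of Pdk3 and Pdk1 in both groups.

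Some markers of another cell type were also higher with TVA. Of 7 myeloid markers, 5 had all TVA libraries above all DMSO libraries (27.3% of all genes tested did), Cd68 and Fcer1g overlapped, and the summed level was 61.8 to 71.3 TPM with DMSO and 80.3 to 83.7 TPM with TVA. Lyz2, the lysozyme gene of macrophages and neutrophils, ran from 28.9 to 31.0 TPM with DMSO and from 38.0 to 41.3 TPM with TVA. Tyrobp had the largest log2 difference of the myeloid markers tested, 0.57 (limma adjusted p = 0.044). For Pdk4 it was 0.71 in the fit over all genes above 0 TPM. Adgre1, which encodes the macrophage antigen F4/80, was under 1 TPM in all 6 libraries. Of the 7 CD8 T cell markers in the table, 5 were likewise higher in every TVA library (summed 2080 to 2260 and 2370 to 2420 TPM). The part of any myeloid cells in the Pdk4 level was not tested.

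The regions upstream of Pdk4 and Pdk1 are shown because these genes are the kinases best known for regulation of their transcription, 1 by fatty acid receptors and FOXO factors and 1 by HIF-1. Each line holds the 200 bases from -250 to -51 before the RefSeq transcription start (build GRCm38.p6), written 5′ to 3′ on the strand of the gene. They are chr6:5496329-5496528 on the minus strand for Pdk4 and chr2:71872974-71873173 on the plus strand for Pdk1 (the first of 2 windows given for it). Capitals mark a match to the core letters bound by HIF factors.
Pdk4: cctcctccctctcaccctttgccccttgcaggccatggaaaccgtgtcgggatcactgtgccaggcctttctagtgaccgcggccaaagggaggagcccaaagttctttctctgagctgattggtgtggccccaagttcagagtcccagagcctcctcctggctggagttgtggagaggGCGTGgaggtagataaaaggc
Pdk1: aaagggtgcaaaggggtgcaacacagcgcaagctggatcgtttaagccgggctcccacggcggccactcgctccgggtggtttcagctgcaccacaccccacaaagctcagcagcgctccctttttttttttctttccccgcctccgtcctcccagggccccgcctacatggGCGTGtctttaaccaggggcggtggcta
Both strands were searched. The HIF core (ACGTG or GCGTG) occurred once in each of these windows, with the first base of the match at -71 in Pdk4 and at -78 in Pdk1, and it occurred in 31.6% of all 32851 RefSeq promoter windows of this length. Neither window held a PPAR element (a direct repeat of AGGTCA spaced by 1 base), an oestrogen-related receptor element (TCAAGGTCA), a FOXO element (GTAAACA) or a cAMP response element (TGACGTCA), which 0.0244%, 0.323%, 2.58% and 0.828% of all windows held. RefSeq windows were found for 9 of the 10 genes, 12 windows in all. The HIF core was in 8 of the 12 and none held any of the other motifs. These are letter matches, not binding sites, and sites elsewhere in the genes were not searched.

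Pdp1 (chromosome 4, 11958184 to 11966452, minus strand) encodes the catalytic subunit of the phosphatase that reactivates the complex. It stood at 6.15, 6.64 and 6.15 TPM in the DMSO libraries, against 6.79, 7.21 and 7.25 TPM in those given TVA. Each TVA library was above each DMSO library, although TVA replicate 1 exceeded DMSO replicate 2 only narrowly. The means were 6.31 ± 0.283 (SD, n = 3) and 7.08 ± 0.255, a ratio of 1.12. Their log2 difference was 0.14 (SE 0.056, 95% interval 0.015 to 0.27) with a limma adjusted p of 0.13, which did not pass.

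Pdha1 (chromosome X, 160122209 to 160138413, minus strand) encodes the alpha subunit of the first enzyme, the subunit the kinases phosphorylate. Its level was 124, 123 and 125 TPM in the DMSO libraries, against 130, 134 and 134 TPM in those given TVA, so the groups did not overlap. The means of 124 ± 1.45 (SD, n = 3) and 133 ± 2.59 gave a ratio of 1.07. On the log2 scale the difference was 0.10 (SE 0.034, 95% interval 0.020 to 0.18), and the limma adjusted p of 0.10 was the lowest of the 9 genes. Map3k15, on the opposite strand, overlaps Pdha1 and was at most 1.33 TPM in any library.

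Pdhb (chromosome 14, 8165996 to 8173025, minus strand) encodes the beta subunit of the same enzyme. It stood at 140, 146 and 150 TPM in the DMSO libraries, against 153, 156 and 155 TPM in those given TVA. Again all TVA libraries were above all DMSO libraries, with the closest pair DMSO replicate 3 and TVA replicate 1. The means were 146 ± 5.14 and 155 ± 1.56 TPM (SD, n = 3), a ratio of 1.06. The log2 difference was 0.090 (SE 0.038, limma adjusted p = 0.15). The sizes for Pdp1, Pdha1 and Pdhb depended on scaling: they were 0.11, 0.063 and 0.053 with median-of-ratios size factors and 0.071, 0.037 and 0.035 with the GC correction.

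Dlat (chromosome 9, 50634633 to 50659780, minus strand), the acetyltransferase that forms the core of the complex, behaved otherwise. Its level was 40.6, 35.8 and 39.3 TPM in the DMSO libraries, against 35.5, 38.3 and 37.2 TPM in those given TVA. DMSO replicate 2 and TVA replicate 1 were the lowest libraries, and the groups overlapped. For Dlat the log2 difference was -0.058 (SE 0.056, limma adjusted p = 0.50).

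Together the 3 subunits summed to 305, 304 and 315 TPM in the DMSO libraries, against 319, 329 and 327 TPM in those given TVA. Divided by the kinase sum of the same library, which is free of the scaling between libraries, this gave 3.40, 3.37 and 3.52 with DMSO and 3.69, 3.60 and 3.62 with TVA. The ratio was higher in each TVA library than in each DMSO library (means 3.43 ± 0.081 and 3.64 ± 0.047, SD, n = 3). It concerns transcripts and was given no test.

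Mpc1 and Mpc2 encode the partners of the mitochondrial pyruvate carrier, which works as a heterodimer. Mpc1 (chromosome 17, 8282904 to 8297661, plus strand) stood at 124, 113 and 122 TPM in the DMSO libraries, against 122, 125 and 126 TPM in those given TVA. DMSO replicate 2 was the lowest library and the groups overlapped. For Mpc1 the log2 difference was 0.059 (SE 0.045, limma adjusted p = 0.39).

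Mpc2 (chromosome 1, 165460637 to 165481214, plus strand) had the largest difference among the 9 genes tested and the largest spread. Its level was 80.3, 48.9 and 76.1 TPM in DMSO replicates 1 to 3 and 49.0, 48.4 and 51.0 TPM in the TVA replicates. DMSO replicates 1 and 3 were far above every TVA library, whereas DMSO replicate 2 lay inside the TVA range. The means were 68.4 ± 17.1 and 49.5 ± 1.34 TPM (SD, n = 3), and the log2 difference was -0.43 (SE 0.17, 95% interval -0.81 to -0.044, limma adjusted p = 0.13). Without DMSO replicate 2 it was -0.65 with a limma adjusted p of 0.00019, in a fit that called 20.6% of all genes tested and 9.38% as lower with TVA. Mpc2 was the only 1 of the 9 genes called there.

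**Figure D2:**
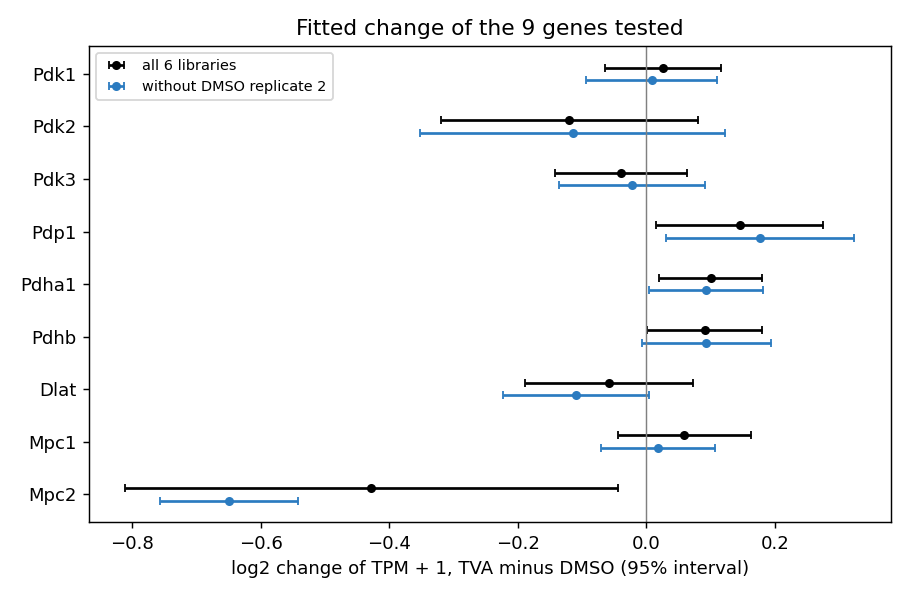
Fitted difference (TVA minus DMSO, log2(TPM + 1)) of the 9 genes tested with its 95% interval, from all 6 libraries (black) and without DMSO replicate 2 (blue). The Mpc2 estimate moves from -0.43 with a wide interval to -0.65 with a narrow one, and the other 8 genes lie within 0.2 of 0 in both fits.

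The ratio of Mpc1 to Mpc2 within a library was 1.54, 2.31 and 1.60 with DMSO and 2.49, 2.58 and 2.47 with TVA. On this ratio DMSO replicate 2 was close to the TVA libraries but below all of them, and the difference between the carrier genes was not tested. An annotated gene on the same strand, Gm37860, overlaps Mpc2 and was not analysed here.

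The genes whose pattern over the 6 libraries was most like that of Mpc2 were, among those averaging 5 TPM or more, Smim10l1 (Pearson r = 0.999), Ube2j2 (0.998) and Wbscr16 (0.998). These are descriptions over 6 libraries that share the position of DMSO replicate 2. Smim10l1 stood at 23.3, 2.74 and 20.2 TPM in the DMSO libraries, against 2.76, 2.35 and 3.04 TPM in those given TVA. Ube2j2, an ubiquitin-conjugating enzyme, stood at 12, 6.36 and 10.9 TPM in the DMSO libraries, against 6.51, 6.51 and 6.70 TPM in those given TVA. Wbscr16 stood at 35.7, 30.2 and 34.9 TPM in the DMSO libraries, against 30.4, 30.05 and 31.0 TPM in those given TVA, a narrower gap. In each of the 3, as in Mpc2, DMSO replicates 1 and 3 were the highest libraries, a likeness that follows from how the 3 were picked.

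**Figure D3:**
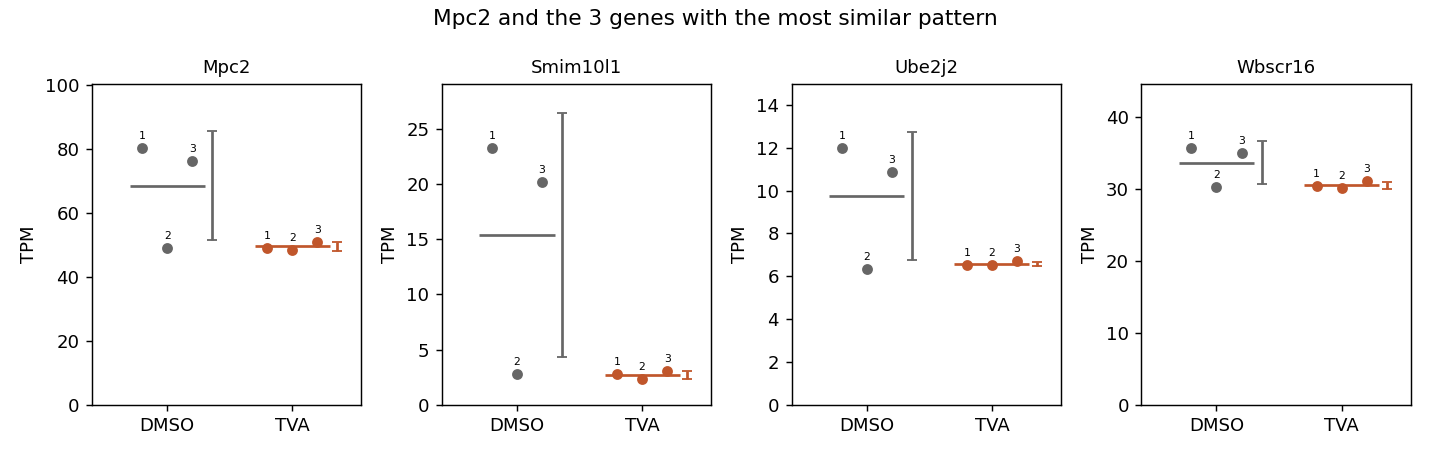
TPM of Mpc2, Smim10l1, Ube2j2 and Wbscr16 in each library, with points labelled by replicate, group means as lines and 1 SD as bars (n = 3). In all 4 panels DMSO replicate 2 sits with the TVA libraries, for Smim10l1 at 2.74 TPM against 23.3 and 20.2 TPM in DMSO replicates 1 and 3.

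The other subunits, assembly factors and cofactor enzymes of the complex gave no call either. Of 11 genes listed, 9 were tested and 0 passed in limma (3 at an unadjusted p under 0.05), with a median log2 difference of 0.084, or 0.031 with the GC correction. In 5 of 9 all TVA libraries were above all DMSO libraries. Of all genes tested, 31.8% had an unadjusted p under 0.05 and 27.3% were higher in every TVA library. Pdhx, the protein that tethers the dihydrolipoamide dehydrogenase to the core, stood at 20.7, 22.6 and 21.2 TPM in the DMSO libraries, against 23.1, 24.1 and 23.4 TPM in those given TVA (log2 difference 0.12, limma adjusted p = 0.13). Dld, that dehydrogenase itself, differed by 0.084 (limma adjusted p = 0.26). Without DMSO replicate 2, 1 of the 9 was called lower, against 9.38% of all genes tested.

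The sister complexes that oxidise 2-oxoglutarate and branched-chain keto acids share Dld and the same chemistry. Of 7 genes tested from 8 listed, 0 passed in limma and 5 had an unadjusted p under 0.05. The median difference was 0.14, or 0.088 with the GC correction. In 4 of the 7 the TVA libraries were all higher, and in 1 all lower, against 27.3% and 11.2% of all genes tested, of which 31.8% had an unadjusted p under 0.05. Without DMSO replicate 2, 2 of them were called higher, as were 11.3% of all genes tested.

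Genes that supply pyruvate or compete for it also stayed under the threshold. Of 12 tested from 13 listed, 0 passed in limma and 4 had an unadjusted p under 0.05 (31.8% of all genes tested did). The median difference was -0.056, and -0.028 without DMSO replicate 1 and -0.094 with median-of-ratios scaling. Ldha, the lactate dehydrogenase subunit of glycolytic cells, was the most abundant, at 1957, 1904 and 1807 TPM in the DMSO libraries, against 1802, 1803 and 1775 TPM in those given TVA. Every TVA library was lower, by little, and the log2 difference was -0.075 (SE 0.042, limma adjusted p = 0.26). Pkm, the pyruvate kinase, differed by -0.078 (adjusted p = 0.34) and Pcx, the carboxylase that makes oxaloacetate from pyruvate, by -0.12 (adjusted p = 0.45). Without DMSO replicate 2, 2 of the 12 were called higher and 2 lower, against 11.3% and 9.38% of all genes tested.

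Slc16a3, the monocarboxylate transporter that exports lactate, came closest to the threshold among the genes that supply pyruvate or compete for it. It stood at 39.7, 31.6 and 33.5 TPM in the DMSO libraries, against 29.4, 27.5 and 27.9 TPM in those given TVA. All TVA libraries were below all DMSO libraries, and the log2 difference was -0.29 (SE 0.081, limma adjusted p = 0.063). It passed with median-of-ratios scaling (0.043), quantile normalization (0.038) and the GC correction (0.028), and without DMSO replicate 1 (0.049) or 2 (0.017). Slc16a3 did not pass without DMSO replicate 3 (limma adjusted p = 0.11) or without TVA replicate 1, 2 or 3 (0.13, 0.21 and 0.2). Nor did it pass with the replicate block (0.061), with no trend (0.077) or when every gene above 0 TPM was fitted (0.12).

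Among 12 transcription factors and cofactors known to act on the kinase genes, 9 were tested. Of these 1 was higher and 1 lower in limma, against 5.28% and 3.23% of all genes tested. All TVA libraries were higher in 2 of the 9 and lower in 2, against 27.3% and 11.2% of all genes tested. Hif1a, the regulated subunit of HIF-1, rose from 94.1, 96.1 and 96.6 TPM to 111, 118 and 117 TPM (log2 difference 0.27, SE 0.040, adjusted p = 0.013, and 0.18 with the GC correction). Rxra, the partner receptor of the PPARs, fell from 6.94, 6.78 and 6.46 TPM to 5.02, 4.77 and 4.57 TPM (difference -0.42, SE 0.058, adjusted p = 0.011). For both genes the TVA and DMSO libraries were well apart. Both calls needed TVA replicates 2 and 3, since without 1 or the other the adjusted p was 0.086 in each case for Hif1a and 0.065 or 0.061 for Rxra. Ppara and Pparg were at most 0.19 TPM in any library and were not tested. Ppard, the PPAR listed at 11.2 to 13.5 TPM, overlapped between the groups (difference -0.087, limma adjusted p = 0.42). Of the FOXO factors listed, Foxo3 was lower in every TVA library (difference -0.34, limma adjusted p = 0.099). Foxo1 overlapped between the groups (difference 0.029, limma adjusted p = 0.72).

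The wider target lists of those factors were then set beside Pdk4 and Pdk1. Of 16 PPAR targets tested from 18 listed, 8 were higher and 0 lower in limma, against 5.28% and 3.23% of all genes tested, with a median difference of 0.22. Plin2, which coats lipid droplets, rose by 1.87 (adjusted p = 3.9e-06), Cpt1a, which admits long-chain fatty acids to the mitochondrion, by 1.54 (adjusted p = 3.9e-06) and Cd36, a fatty acid receptor, by 0.78 (adjusted p = 0.017). Without any 1 TVA library 5 of the 16 were called higher, and Cd36 was lost (0.077 to 0.089), and without DMSO replicate 2 there were 8 higher and 2 lower, against 11.3% and 9.38% of all genes tested. Pdk4 itself was not part of this list.

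Of 19 HIF targets tested from 20 listed, 4 were lower and 0 higher in limma, against 3.23% and 5.28% of all genes tested. Their median difference was -0.14. In 14 of the 19 every TVA library was below all DMSO libraries, against 11.2% of all genes tested. Egln3, the oxygen-sensing hydroxylase induced by HIF, fell from 18.4, 15.5 and 16.6 TPM to 9.93, 9.28 and 9.62 TPM (difference -0.75, limma adjusted p = 0.0020). Ankrd37 fell by 0.58 (adjusted p = 0.035) and Bnip3, a mitophagy receptor, by 0.28 (adjusted p = 0.048). The number of these targets called lower moved with the setting. It was 1 of the 19 with the replicate block or without any 1 TVA library, and 2 without DMSO replicate 3. It was 7 without DMSO replicate 2 or with the GC correction, and 8 with median-of-ratios scaling. Among all 10866 genes the lower calls moved as well, from 351 to 125 with the replicate block and 64 to 74 without a TVA library. They numbered 151 without DMSO replicate 3, 1019 without DMSO replicate 2, 534 with the GC correction and 492 with median-of-ratios scaling. Pdk1, with its difference of 0.026, was not part of this list, whereas Ldha and Slc16a3 were.

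**Figure D4:**
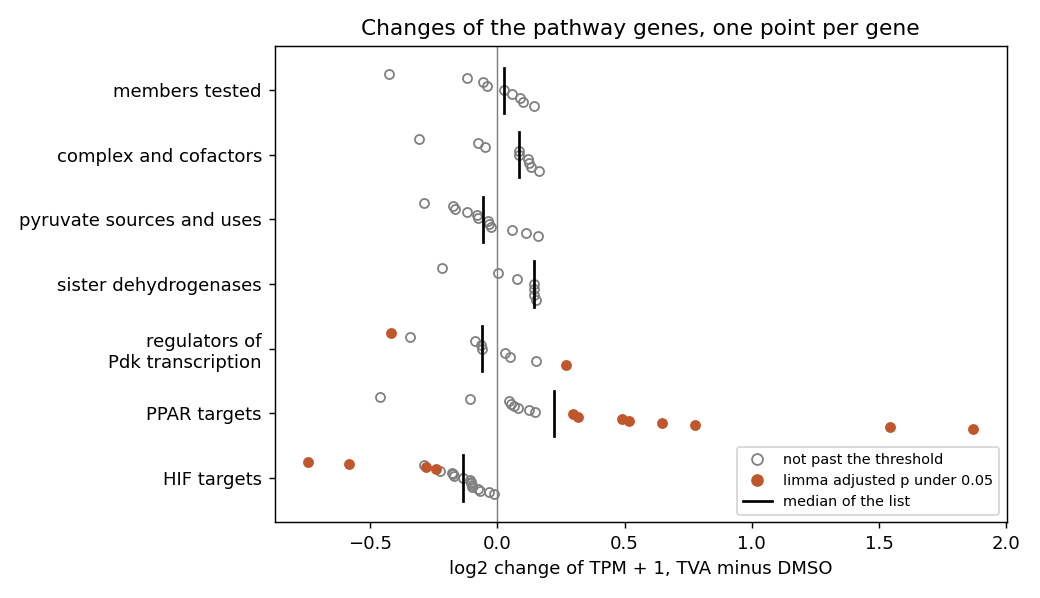
Log2 difference (TVA minus DMSO, log2(TPM + 1)) of each gene tested in the 7 groups, 1 point a gene, filled where the limma adjusted p was under 0.05, with the median of each group as a vertical line. No gene of the route or of the 3 lists below it is filled, the regulators hold Hif1a and Rxra filled, 8 PPAR targets are filled on the right and 4 HIF targets on the left.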

How the data were processed

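Bulk RNA-seq was analysed from 6 libraries (3 TVA, 3 DMSO), grouped by their titles. The authors deposited 1 table of TPM per gene symbol, used as deposited. The submitters' processing notes name STAR, RSEM and mm10, with no versions or roles; strand use is not given in the sources used here. A SMARTER mRNA-Seq kit was used for the libraries. TPM keeps no depth, so no counting interval is given.

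TVA and DMSO were compared on log2(TPM + 1) with limma 3.58.1 (R 4.3.3, variance trend, two-sided, Benjamini-Hochberg over the 10866 genes with at least 1 TPM in at least 3 libraries, threshold 0.05). A difference on this scale understates the change of low genes. Pdk4, below that minimum, was fitted with all genes above 0 TPM. On simulated data for this comparison, 191 of 200 genes changed by 1 (log2) among 10866 were recovered and 12 unchanged genes were called. Alternatives were a pseudocount of 0.1, other minimum levels, median-of-ratios and quantile scaling, no trend, a replicate block, a 1.5-fold minimum, each library left out, and a GC correction (loess of each gene's deviation on transcript GC content, span 0.5, which 97.4% of genes tested had). The alternatives to the Pdk4 fit were added after seeing the data. The deviations of libraries 1, 2 and 3 of the groups from their means correlated at 0.157, 0.0348 and -0.0767, and replicate numbers were therefore not treated as pairs.

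The genes and lists were chosen with earlier results of these data known, so no test was made over a list. Named were all 10 genes; of the 4 pathway lists, each gene past the threshold and Dld, Pdhx, Ldha, Pkm, Pcx and Slc16a3; of the PPAR and HIF targets, up to 3 each with the largest change past the threshold; and the 3 genes (mean of at least 5 TPM) most correlated with the member of largest change, Mpc2. Marker genes were named as checks, and the PPAR and FOXO genes of the regulator list as known regulators of Pdk4. Positions came from GENCODE vM21 (GRCm38) and promoter windows from RefSeq. Figures were drawn with matplotlib 3.10.9.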

Additional observations from a re-analysis of the deposited data

How the results depend on the processing

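Of the 124 values of the 9 genes tested under other settings, 120 kept their direction and their side of the threshold. Pdk1 turned negative with median-of-ratios scaling (-0.011), quantile normalization (-0.0037) and the GC correction (-0.028), and Mpc2 passed without DMSO replicate 2 (range over libraries left out -0.65 to -0.297). The untested Pdk4 difference was 2.71 with a pseudocount of 0.1. The number of the 10 genes called was 1 (Pdk4) with all genes above 0 TPM, and 0 to 1 with a library left out. Of the 37 other pathway genes tested, 2 passed, against 8.51% of all genes tested. The count became 0 at 1.5-fold, 1 at a mean of 10 TPM and 3 with each other scaling and the GC correction. With a library left out it was 0 to 10, and the 10 came without DMSO replicate 2, where 20.6% of all genes tested were called. Over all genes the 925 calls became 494 with all genes above 0 TPM, 608 at a mean of at least 10 TPM, 88 at 1.5-fold and 102 to 2242 with a library left out (102, 113 and 125 without TVA replicates 2, 3 and 1, 294 without DMSO replicate 3, 2242 without DMSO replicate 2). With the replicate block 218 genes were called, and it changed no call of the 9 genes tested. The split of 574 higher and 351 lower became 270 and 492 with median-of-ratios scaling. The summed TPM difference of the kinases moved from -0.50 to -2.87 and that of the subunits from 16.8 to 8.39 with that scaling. Dld turned negative (-0.015) with the GC correction. Of 233 values of the other named genes, 203 kept their call, 21 lost it and 8 gained it. The causes were not tested. A mean of at least 10 TPM left no value for Pdk2, Pdk4 and Pdp1. Values near 0 TPM are limited by the unknown depth.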
